A study of Mus musculus with 11 samples.

Results

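The genes described here are the matrix metalloproteinases (Mmp genes), the ADAMTS proteases and the ADAMTS-like proteins (Adamts and Adamtsl genes), and the tissue inhibitors of metalloproteinases (Timp genes) of the mouse, measured in cultured primary lung fibroblasts. They were chosen by symbol alone, not by their values. Of the 58223 entries in each deposited count table, 51 carried such a symbol, and 48 of these had at least 1 count in at least 1 of the 11 libraries. The 48 comprised 22 of 23 Mmp genes, 17 of 19 Adamts genes, all 5 Adamtsl genes and all 4 Timp genes. Mmp7, Adamts18 and Adamts19 had no count in any library.

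The study measured total RNA, after ribosomal RNA depletion, in lung fibroblast cultures. 6 libraries came from cGAS knockout animals (KO, 3 of each sex) and 5 from wild types (WT, of which 2 were female and 3 male), each from a separate mouse. cGAS is a sensor of cytosolic DNA that activates STING, and its mRNA, from the targeted gene Cgas, stood at 2.07 ± 0.253 CPM (counts scaled to a common library size, SD, n = 6) in KO libraries and 8.25 ± 1.75 CPM (SD, n = 5) in WT libraries. The sources used here give no age, strain or allele design. All cells were grown at 37 °C in 5% CO2 and 5% O2, with no other treatment in the labels. Female and male libraries carry differently styled names, so a sex difference and a difference in preparation cannot be told apart.

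Matrix metalloproteinases are zinc endopeptidases that cut collagens, gelatin, elastin and proteoglycans around cells, either after secretion or while anchored in the plasma membrane. Most are made as inactive precursors. TIMPs block them by binding the active site, and TIMP3 also inhibits several ADAMTS enzymes. ADAMTS proteases are secreted and bound to the matrix, where some cut large proteoglycans such as aggrecan and versican and others trim the ends of procollagens. ADAMTS-like proteins share the accessory domains but lack the protease. In lung, fibroblasts are a main source of collagenases, gelatinase A and TIMPs, whereas MMP-12 and MMP-9 are best known from macrophages and neutrophils.

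10 Mmp genes lie side by side on chromosome 9 in the GRCm38 build, in the order Mmp13, Mmp12, Mmp1b, Mmp3, Mmp1a, Mmp10, Mmp8, Mmp27, Mmp20 and Mmp7. Their start regions are shown because neighbours in this row had differences of opposite sign, described further on. The sequences are from RefSeq (GRCm38.p6, + strand) and hold the 150 bases before the annotated start, with the motifs TGANTCA (the element bound by AP-1, the Fos and Jun dimer) and TATAAA in capitals. They lie at chr9:7272364-7272513 (Mmp13), chr9:7445672-7445821 (Mmp3), chr9:7502192-7502341 (Mmp10), chr9:7558279-7558428 (Mmp8) and chr9:7571246-7571395 (Mmp27).
Mmp13: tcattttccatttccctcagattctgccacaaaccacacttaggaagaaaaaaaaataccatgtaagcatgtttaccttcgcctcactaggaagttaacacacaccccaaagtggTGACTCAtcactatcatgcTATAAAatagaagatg
Mmp3: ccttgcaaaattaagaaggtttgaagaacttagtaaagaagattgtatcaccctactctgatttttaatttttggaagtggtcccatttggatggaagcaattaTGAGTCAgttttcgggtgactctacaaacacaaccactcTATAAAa
Mmp10: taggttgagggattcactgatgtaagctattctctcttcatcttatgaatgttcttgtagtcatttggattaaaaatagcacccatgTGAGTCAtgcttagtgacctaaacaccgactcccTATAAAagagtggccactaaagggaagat
Mmp8: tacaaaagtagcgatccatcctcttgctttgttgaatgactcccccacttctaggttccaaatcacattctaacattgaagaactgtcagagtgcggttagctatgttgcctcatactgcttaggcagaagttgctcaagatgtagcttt
Mmp27: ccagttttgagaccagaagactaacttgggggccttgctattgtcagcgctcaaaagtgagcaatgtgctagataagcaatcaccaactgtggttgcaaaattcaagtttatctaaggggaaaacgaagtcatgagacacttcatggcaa

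TGANTCA began 35 bases before the start of Mmp13, 46 bases before that of Mmp3 and 63 bases before that of Mmp10. Neither Mmp8 nor Mmp27 had it in the printed stretch. The wider RefSeq windows of 300 bases (250 before and 50 after the start) were searched on both strands for all genes listed there, and 2565 of 32851 windows (7.81%) held TGANTCA. Promoter windows were found for 36 of the 51 family genes. TGANTCA was present in 8 of these, namely Mmp1a, Mmp1b, Mmp3, Mmp7, Mmp10, Mmp12, Mmp13 and Mmp20, all in the chromosome 9 row. TATAAA was in 4473 windows (13.6%) and in 12 of the family windows. A match is a run of letters and does not show that a factor binds there.

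RNA levels were compared between genes as CPM per kilobase of exon, where the length is that of all annotated exons of a gene together. It was 888 bases for Timp1 and 7237 bases for Mmp12. This length need not be that of the transcript present in these cells. The order of the genes and the ratio of the sums below depend on it. Timp1 had the highest mean level over the 11 libraries, at 283 CPM per kb, followed by Timp2 at 192 CPM per kb. Mmp12 (macrophage elastase) followed at 84.6 CPM per kb, Mmp14 (the main membrane-anchored collagenase, MT1-MMP) at 79.0, Mmp9 (gelatinase B) at 76.6 and Timp3 at 52.6. The highest ADAMTS members were Adamts2 (the procollagen N-proteinase) at 40.3 and Adamts1 (a versicanase) at 38.2 CPM per kb. Mmp2 (gelatinase A) stood at 35.2 and Adamts5 (the principal aggrecanase of mouse cartilage) at 30.5 CPM per kb. Summed per kilobase, the MMP level was 0.507 to 0.815 times the summed TIMP level in 10 libraries, and 1.35 times in WT female 2, where Timp1, Timp2 and Timp3 each had their lowest value.

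40 of the 48 genes passed the low-count filter and were tested with edgeR (quasi-likelihood F-test, p-values adjusted over all 22960 entries tested, threshold 0.05). The 8 that did not pass were Mmp1a, Mmp1b, Mmp20, Mmp21, Adamts13, Adamts16, Adamts17 and Adamts20, with 1 to 62 counts summed over all libraries. A gene read mainly in 1 group can pass through that group, so counts and medians over the 40 describe the tested genes only. Levels varied between genes in how evenly they were held. Mmp19 and Mmp24 varied least within groups, with an SD of 0.117 and 0.149 on the log2 scale, whereas Adamts15 (1.13) and Mmp3 (1.02) varied most. The highest library exceeded the lowest by 1.50-fold for Timp1 and by 27.3-fold for Adamts15.

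The first comparison asks which of these genes differ between KO and WT fibroblasts over both sexes. None of the 40 passed the test, where 1 of 22960 entries did (0.00436%). In the edgeR fit 20 members were higher (47.1% of all entries) and 20 lower in KO, but only 14 of 40 were higher without WT male 1 and 24 of 39 without WT male 3. Their median log2 difference was -0.002, against -0.017 over all entries. At an unadjusted p under 0.05 in edgeR there were 8 of 40 members, against 16.9% of all entries. Of these, 4 were higher in KO (Mmp19, Mmp27, Adamtsl2 and Adamtsl3, against 9.85% of all entries) and 4 lower (Mmp17, Mmp28, Adamts8 and Adamts12, against 7.05%). DESeq2 called 0 members where it called 2.32% of all entries, while limma-voom with sample quality weights called 6 (Adamts5, Adamtsl5, Mmp24 and Mmp27 higher, Adamts8 and Mmp13 lower) where 13.6% of all entries were called. No member had KO and WT libraries that did not overlap, against 1.15% of all entries. Bulk RNA cannot tell fewer cells of a type apart from less RNA per cell, and this holds for every value given here.

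Among the inhibitors, Timp1 (an inhibitor of most secreted MMPs, often induced by growth factors) was even across libraries. It read 288, 256 and 245 CPM in KO females, 213, 229.5 and 232 CPM in KO males, 282 and 203 CPM in WT females, and 268, 240.0 and 305 CPM in WT males. KO and WT overlapped as a whole, but all 3 KO males lay below all 3 WT males. The log2 difference over both sexes was -0.10 (SE 0.11, edgeR adjusted p = 0.684).

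Timp2 (which also takes part in activating pro-MMP-2 at the cell surface) read 708, 794 and 681 CPM in KO females and 734, 851 and 922 CPM in KO males. It read 711 and 445 CPM in WT females and 694, 736 and 943 CPM in WT males. WT female 2 was the lowest library and the groups overlapped, with a log2 difference of 0.19 (SE 0.14, edgeR adjusted p = 0.494).

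Timp3 (the matrix-bound inhibitor with the widest range of targets) varied most among the abundant inhibitors, 10.5-fold between libraries. It read 729.5, 328 and 248 CPM in KO females, 315, 333 and 167 CPM in KO males, 395 and 108 CPM in WT females, and 492, 463 and 1133 CPM in WT males. KO female 1 and WT male 3 stood above all others. The 3 KO males lay below the 3 WT males, whereas KO and WT females overlapped.

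In males the Timp3 mean was 272 ± 90.9 CPM (SD, n = 3) in KO and 696 ± 379 CPM (SD, n = 3) in WT, a log2 difference of -1.36 (SE 0.56, edgeR adjusted p = 0.187). Over both sexes the log2 difference was -0.46 (SE 0.55, edgeR adjusted p = 0.701), and it was -0.06 without WT male 3 and -0.94 without WT female 2. Genes listed as markers of some other cell types, but not of all, were high in the same libraries. All 9 smooth muscle markers were read, and their summed level was highest in the 3 libraries that were highest for Timp3 (5016 CPM in WT male 3, 4440 CPM in WT male 1 and 3936 CPM in KO female 1), against 1328 to 3054 CPM in the rest. All 7 mesothelial markers were read, with summed levels of 191 CPM in WT male 3 and 124 CPM in KO female 1, but only 24.0 CPM in WT male 1, and 12.8 to 106 CPM in the rest. Macrophage markers summed to 4928 CPM in WT male 3, 5143 CPM in WT male 1 and 7053 CPM in KO female 1, against 5648 to 11689 CPM in the rest. Endothelial markers summed to 53.0, 40.3 and 76.9 CPM in these libraries, against 55.5 to 105 CPM in the rest. The part of these cells in the Timp3 values was not tested. Timp3 exons share 1733 bases (21.3% of its exon length) with Syn3 on the other strand, and without a stated strand setting their reads cannot be separated.

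Timp4 was scarce, at 0 to 0.329 CPM. It read 0.290, 0.0834 and 0.224 CPM in KO females, 0.243, 0.0875 and 0.285 CPM in KO males, 0.0953 and 0.329 CPM in WT females, and 0, 0.213 and 0.211 CPM in WT males. These are 0 to 14 counts per library, so only large differences could have been detected, and the groups overlapped. The log2 difference was 0.22 (SE 0.59, edgeR adjusted p = 0.882).

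**Figure D1:**
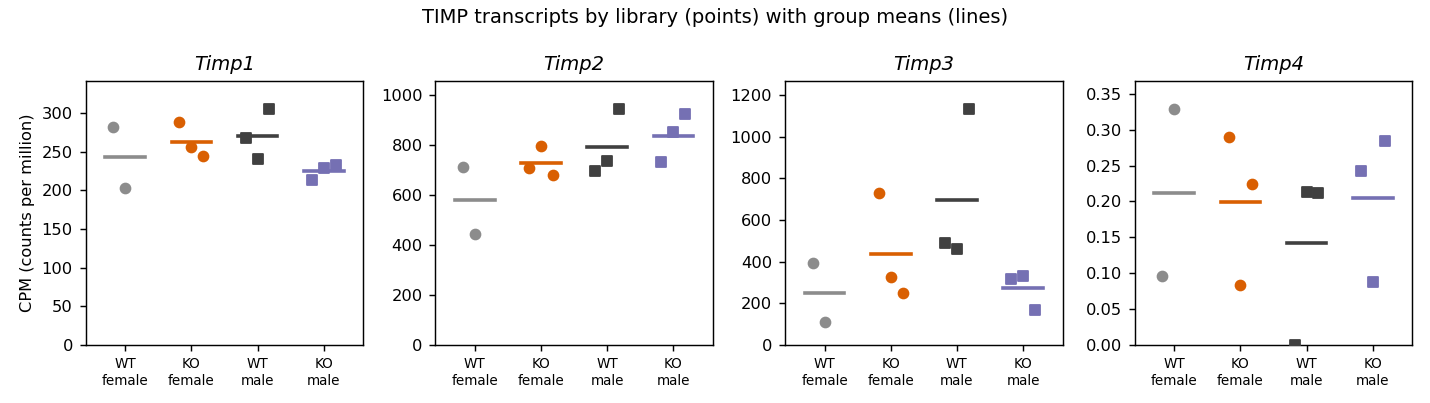
CPM of the 4 TIMP transcripts in each library (points; squares are males and circles females) with the mean of each group (lines), on linear axes that start at 0. KO males sit below WT males for Timp1 and Timp3, KO female 1 and WT male 3 stand high for Timp3, and Timp4 stays under 0.329 CPM.

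Of the collagenases, which open the triple helix of fibrillar collagen, Mmp13 and Mmp8 were tested. Mmp13 had a mean of 13.6 ± 4.83 CPM (SD, n = 6) in KO and 18.3 ± 4.41 CPM (SD, n = 5) in WT, a log2 difference of -0.47 (SE 0.26, edgeR adjusted p = 0.372). Mmp8 had 31.7 ± 11.9 and 18.3 ± 10.5 CPM, a difference of the opposite sign (0.74, SE 0.39, edgeR adjusted p = 0.348). The ratio of Mmp13 to Mmp8 counts lay between 0.245 and 0.588 in KO libraries and between 0.473 and 1.95 in WT libraries. WT female 1, at 0.473, was the only WT library inside the KO range. Since the 2 genes had opposite signs in these same data, their ratio sets the genotypes further apart. It is a description only and was not tested.

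The gelatinases Mmp2 and Mmp9, which cut denatured collagen and basement membrane collagen, differed by less than their spread. Mmp9 had 250.0 ± 90.3 CPM (SD, n = 6) in KO and 296 ± 154 CPM (SD, n = 5) in WT (log2 difference -0.29, SE 0.32, edgeR adjusted p = 0.667). Mmp2 had 117 ± 44.7 and 121 ± 65.8 CPM (log2 difference -0.04, SE 0.33, edgeR adjusted p = 0.961). Among the stromelysins, which activate other MMPs, Mmp10 had 19.3 ± 15.3 and 24.3 ± 11.5 CPM (log2 difference -0.75, SE 0.40, edgeR adjusted p = 0.351). Mmp3 had 44.1 ± 20.8 and 37.2 ± 26.4 CPM (log2 difference 0.29, SE 0.45, edgeR adjusted p = 0.777).

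Mmp19, a secreted MMP that cuts basement membrane proteins, had the steadiest levels and the second smallest p of the families. It read 63.7, 68.1 and 66.8 CPM in KO females, 56.5, 56.8 and 59.2 CPM in KO males, 64.3 and 54.4 CPM in WT females, and 41.6, 51.5 and 50.5 CPM in WT males. KO males lay above WT males, while WT female 1 lay within the KO female range. The log2 difference was 0.22 (SE 0.08, edgeR adjusted p = 0.210), and the exact permutation test (two-sided, genotypes shuffled inside each sex) gave an unadjusted p = 0.01, where the smallest possible was 0.005. Mmp19 shares 22.3% of its exon length with Tmem198b on the other strand.

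Mmp27, a member of the chromosome 9 row, read 12.4, 15.1 and 16.2 CPM in KO females and 25.5, 24.5 and 18.1 CPM in KO males. It read 15.0 and 2.38 CPM in WT females and 8.34, 13.2 and 9.99 CPM in WT males. WT female 2 was by far the lowest, and WT female 1 and WT male 2 lay within the KO range. The log2 difference was 0.95 (SE 0.34, edgeR adjusted p = 0.218, unadjusted exact permutation p = 0.01). It was 1.52 with an edgeR adjusted p = 0.0244 without WT female 1, which leaves that group 1 library.

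Mmp28 (epilysin) read 2.08, 2.46 and 1.79 CPM in KO females, 1.79, 1.86 and 2.56 CPM in KO males, 2.41 and 4.17 CPM in WT females, and 2.72, 1.94 and 3.09 CPM in WT males. WT female 2 was the highest and the groups overlapped. Its log2 difference was -0.46 (SE 0.19, edgeR adjusted p = 0.258). Mmp12 had 609 ± 211 CPM (SD, n = 6) in KO and 616 ± 184 CPM (SD, n = 5) in WT, a log2 difference of -0.02 (SE 0.22, edgeR adjusted p = 0.978).

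Mmp17, a membrane-anchored enzyme held by a lipid anchor, read 16.5, 10.9 and 11.9 CPM in KO females, 6.46, 6.80 and 7.77 CPM in KO males, 11.8 and 17.1 CPM in WT females, and 13.3, 8.98 and 16.7 CPM in WT males. The 3 KO males were the lowest of all libraries, and the females overlapped. Over both sexes the log2 difference was -0.56 (SE 0.21, edgeR adjusted p = 0.221). Mmp14, the most abundant membrane type per kilobase, had 436 ± 39.4 CPM (SD, n = 6) in KO and 512 ± 124 CPM (SD, n = 5) in WT (log2 difference -0.20, SE 0.14, edgeR adjusted p = 0.484). Mmp24 had 7.87 ± 0.687 and 6.79 ± 0.933 CPM (log2 difference 0.22, SE 0.10, edgeR adjusted p = 0.310). Mmp25, which carries the same kind of lipid anchor, was scarce, at 5 to 37 counts per library (log2 difference -0.83, SE 0.40, edgeR adjusted p = 0.312).

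Adamts12, which cuts cartilage oligomeric matrix protein, read 169.8, 82.1 and 139 CPM in KO females, 78.9, 82.4 and 95.9 CPM in KO males, 131 and 132 CPM in WT females, and 162, 121 and 166 CPM in WT males. KO males lay below WT males, while KO female 1 was the highest library of all. The log2 difference was -0.46 (SE 0.20, edgeR adjusted p = 0.281).

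Among the proteases of large proteoglycans, Adamts5 had 370.3 ± 78.9 CPM (SD, n = 6) in KO and 279.6 ± 66.2 CPM (SD, n = 5) in WT (log2 difference 0.40, SE 0.19, edgeR adjusted p = 0.305). Adamts15 had 26.9 ± 12.8 and 13.1 ± 7.08 CPM (log2 difference 1.00, SE 0.48, edgeR adjusted p = 0.316). Adamts8 was read by 1 to 24 counts per library. It read 0.0447, 0.167 and 0.0374 CPM in KO females, 0.0441, 0.109 and 0.0610 CPM in KO males, 0.0953 and 0.202 CPM in WT females, and 0.0970, 0.511 and 0.396 CPM in WT males.

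WT males 2 and 3 were the high libraries for Adamts8 and the groups overlapped, with a log2 difference of -1.61 (SE 0.55, edgeR adjusted p = 0.207). The procollagen N-proteinases Adamts2 and Adamts3 had log2 differences of 0.19 (SE 0.14, edgeR adjusted p = 0.510) and 0.62 (SE 0.42, edgeR adjusted p = 0.468).

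Of the ADAMTS-like proteins, Adamtsl2 (a fibrillin-binding protein of the microfibrils) read 0.358, 0.980 and 0.935 CPM in KO females, 0.794, 0.0875 and 0.163 CPM in KO males, 0.0953 and 0.329 CPM in WT females, and 0.0970, 0.149 and 0.106 CPM in WT males. 4 KO libraries stood above every WT library and KO male 2 stood below every WT library. These are 3 to 47 counts, and the log2 difference was 1.64 (SE 0.58, edgeR adjusted p = 0.211). Adamtsl3 (punctin-2) read 2.19, 5.05 and 2.06 CPM in KO females, 8.36, 4.31 and 9.46 CPM in KO males, 1.94 and 0.607 CPM in WT females, and 6.04, 2.68 and 4.60 CPM in WT males. KO females lay above WT females and the males overlapped, with a log2 difference of 0.96 (SE 0.37, edgeR adjusted p = 0.233). The exact permutation test was run on 28 tested members, and beside Mmp19 and Mmp27 the other 6 with the smallest edgeR p gave unadjusted p-values of 0.04 (Mmp28), 0.045 (Adamtsl3), 0.055 (Adamts8), 0.06 (Mmp17), 0.07 (Adamtsl2) and 0.095 (Adamts12).

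**Figure D2:**
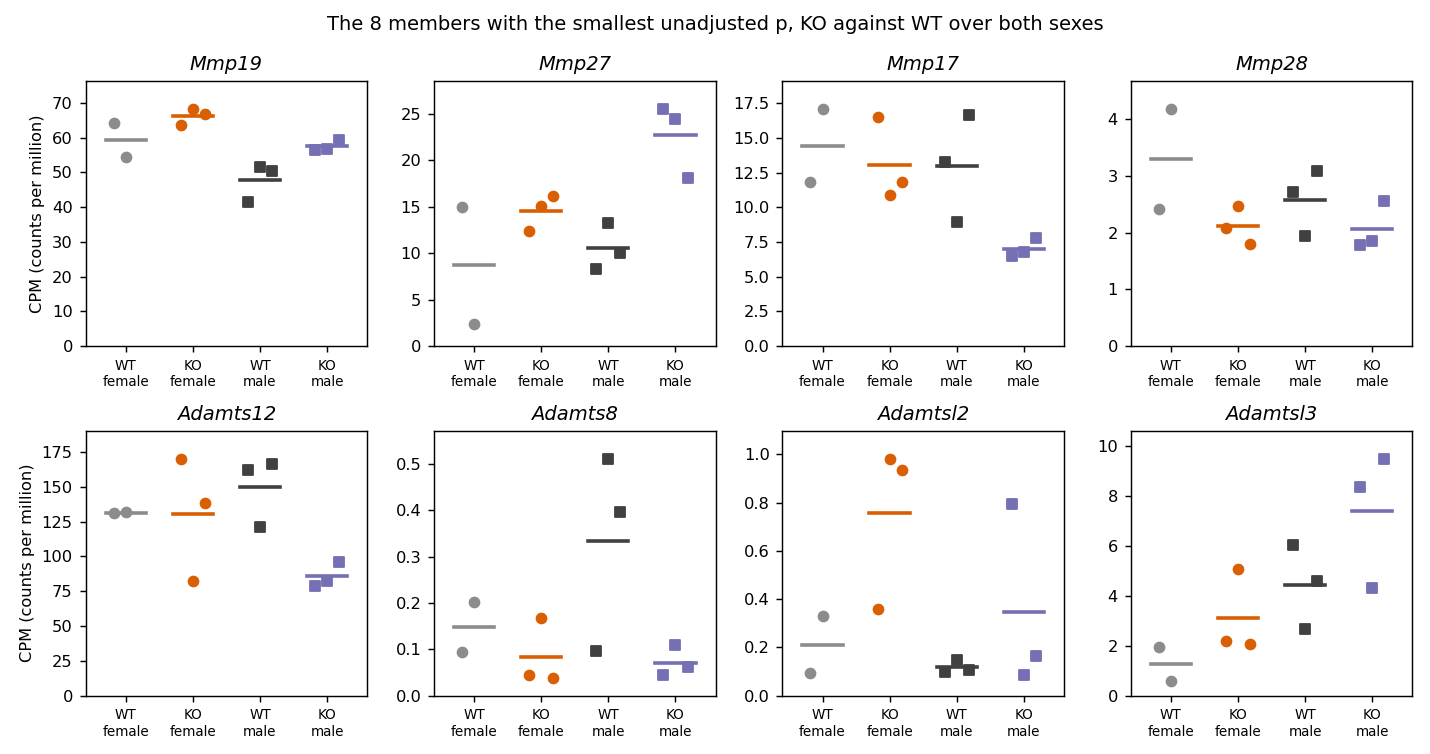
CPM in each library (points; squares are males and circles females) and group means (lines) for the 8 members with the smallest unadjusted p in the KO against WT comparison, on linear axes from 0. KO males stand apart from WT males for Mmp17, Mmp19, Mmp27 and Adamts12, and in no panel do all KO libraries stand apart from all WT libraries.

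The same contrast was then taken within each sex. In males edgeR called 0 of the 40 members, where 459 of 22960 entries (2%) were called. DESeq2 called 5 members in males (Adamts5 and Adamtsl5 higher, Mmp13, Mmp17 and Adamts12 lower) where it called 9.26% of all entries, and limma-voom called 6 where it called 20% of all entries. At an unadjusted p under 0.05 in edgeR there were 12 of 40 members, against 22.2% of all entries, 5 of them higher (against 12.3%) and 7 lower (against 9.84%). The 3 KO and 3 WT male libraries did not overlap for 11 of the 40 members (27.5%, against 30.9% of all entries). KO was higher for 5 (Mmp19, Mmp24, Mmp27, Adamts5 and Adamtsl5, against 17.7% of all entries) and lower for 6 (Mmp13, Mmp17, Adamts10, Adamts12, Timp1 and Timp3, against 13.2%).

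Mmp13 had the smallest p in males. It read 9.86, 14.0 and 7.32 CPM in the KO males and 18.4, 20.8 and 23.7 CPM in the WT males, with no overlap. The log2 difference was -1.01 (SE 0.24, edgeR adjusted p = 0.0561), and it passed the threshold without WT female 1 (edgeR adjusted p = 0.0355) and without WT female 2 (edgeR adjusted p = 0.0383). Mmp13 in females read 20.8, 13.01 and 16.8 CPM in KO and 16.6 and 11.96 CPM in WT, which overlapped.

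Adamts5 read 395, 343 and 514 CPM in KO males and 170.3, 265 and 313 CPM in WT males, a log2 difference of 0.74 (SE 0.21, edgeR adjusted p = 0.0821). Mmp17 and Adamts12 had log2 differences of -0.89 (SE 0.24, edgeR adjusted p = 0.0706) and -0.80 (SE 0.22, edgeR adjusted p = 0.0767) in males. Adamtsl5, a small microfibril-associated member, read 46.3, 41.8 and 41.1 CPM in KO males and 29.4, 32.9 and 34.1 CPM in WT males (log2 difference 0.42, SE 0.12, edgeR adjusted p = 0.0876). None of these 5 genes passed the edgeR threshold on all libraries with the low-count filter. In each of them the male groups did not overlap. Without WT male 2, Mmp17 passed in males (log2 difference -1.10, SE 0.22, edgeR adjusted p = 0.0332), where 1012 of 22726 entries were called. With no low-count filter edgeR called Mmp13 (adjusted p = 0.0215), Mmp17 (0.0379), Adamts12 (0.0378) and Adamts5 (0.0431), where it called 1079 of 38314 entries.

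Genes listed here as markers of other cell types also differed between KO and WT males, in both directions. The summed level of 15 macrophage markers was 6930 to 11689 CPM in KO males and 4928 to 6557 CPM in WT males, with 12 of 15 higher and none at 0. edgeR called 3 of them higher, each with an adjusted p = 0.0475: Adgre1 (log2 difference 1.02, SE 0.18), Cd68 (0.93, SE 0.19) and Ptprc (0.82, SE 0.17). Over all entries it called 299 of 22960 higher and 160 lower in males. The summed level of 9 smooth muscle markers was 1328 to 2177 CPM in KO males and 2739 to 5016 CPM in WT males, and 4 were called lower (Cnn1, Myh11, Smtn and Lmod1). The summed level of 12 epithelial markers was 10.9 to 14.1 CPM in KO males and 22.3 to 56.4 CPM in WT males. None of the 8 tested was higher in KO, and Krt19 was called lower (-0.91, SE 0.19, edgeR adjusted p = 0.0475). Epcam, Scgb1a1, Cldn4 and Nkx2-1 had too few counts to test. Endothelial markers summed to 55.5 to 101 CPM in KO males and 40.3 to 88.5 CPM in WT males. Of the 8 tested, only 2 were higher in KO, and the list median log2 difference was -1.42. At an unadjusted edgeR p under 0.05, 5 were lower and 2 higher (against 9.84% and 12.3% of all entries), and 1 (Vwf) was called higher. Neutrophil markers summed to 2.25 to 12.8 CPM over all libraries, with Ly6g at 0. The part of these cell types in the MMP, ADAMTS and TIMP values was not tested. Whether the lists follow numbers of such cells or expression within the fibroblasts was not tested either. KO males 1 and 2, with the highest macrophage marker sums (11689 and 10280 CPM), were also the highest libraries for Mmp27. Below them the order differed. KO male 3 was next for Mmp27 (18.1 CPM) with a macrophage sum of 6930 CPM, whereas KO female 2 had 15.1 CPM of Mmp27 and a sum of 7560 CPM. Mmp12 and Mmp9, named above for macrophages and neutrophils, did not pass in males. Their log2 differences were 0.26 (SE 0.29, edgeR adjusted p = 0.633) and -0.21 (SE 0.44, edgeR adjusted p = 0.825).

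In females edgeR called 0 members, where 1 of 22960 entries was called (0.00436%). DESeq2 and limma-voom also called 0 members, where they called 0.0261% and 0% of all entries. At an unadjusted p under 0.05 in edgeR there were 4 of 40 members, against 6.66% of all entries. The female libraries did not overlap for 5 of 40 members (12.5%, against 18.9% of all entries), and KO was higher in each of them (against 9.05% of all entries): Adamts1, Adamts9, Adamtsl2, Adamtsl3 and Mmp16. Mmp16 (a membrane-anchored enzyme that activates pro-MMP-2) read 3.26, 3.09 and 2.13 CPM in KO females and 2.03 and 0.531 CPM in WT females. WT female 2 was the lowest, and the log2 difference of 1.18 (SE 0.49, edgeR adjusted p = 0.692) was 0.49 without that library.

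Whether the KO effect differed between the sexes was tested directly, as the male difference less the female difference. edgeR called 0 of 40 members and 0 of 22960 entries (0%). DESeq2 and limma-voom also called 0 members, where they called 0.989% and 0% of all entries. At an unadjusted p under 0.05 in edgeR there were 7 of 40 members, against 13.1% of all entries, 2 positive (against 7.73%) and 5 negative (against 5.41%). The smallest p belonged to Adamtsl5 (0.68, SE 0.19) and Mmp13 (-1.26, SE 0.37), each with an edgeR adjusted p = 0.294. Timp3 had a difference of -2.15 (SE 0.85, edgeR adjusted p = 0.338), and Mmp16 one of -1.63 (SE 0.62, edgeR adjusted p = 0.324). Without WT female 1 the Timp3 value was -3.38 with an edgeR adjusted p = 0.0443, where the WT female group had 1 library left.

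**Figure D3:**
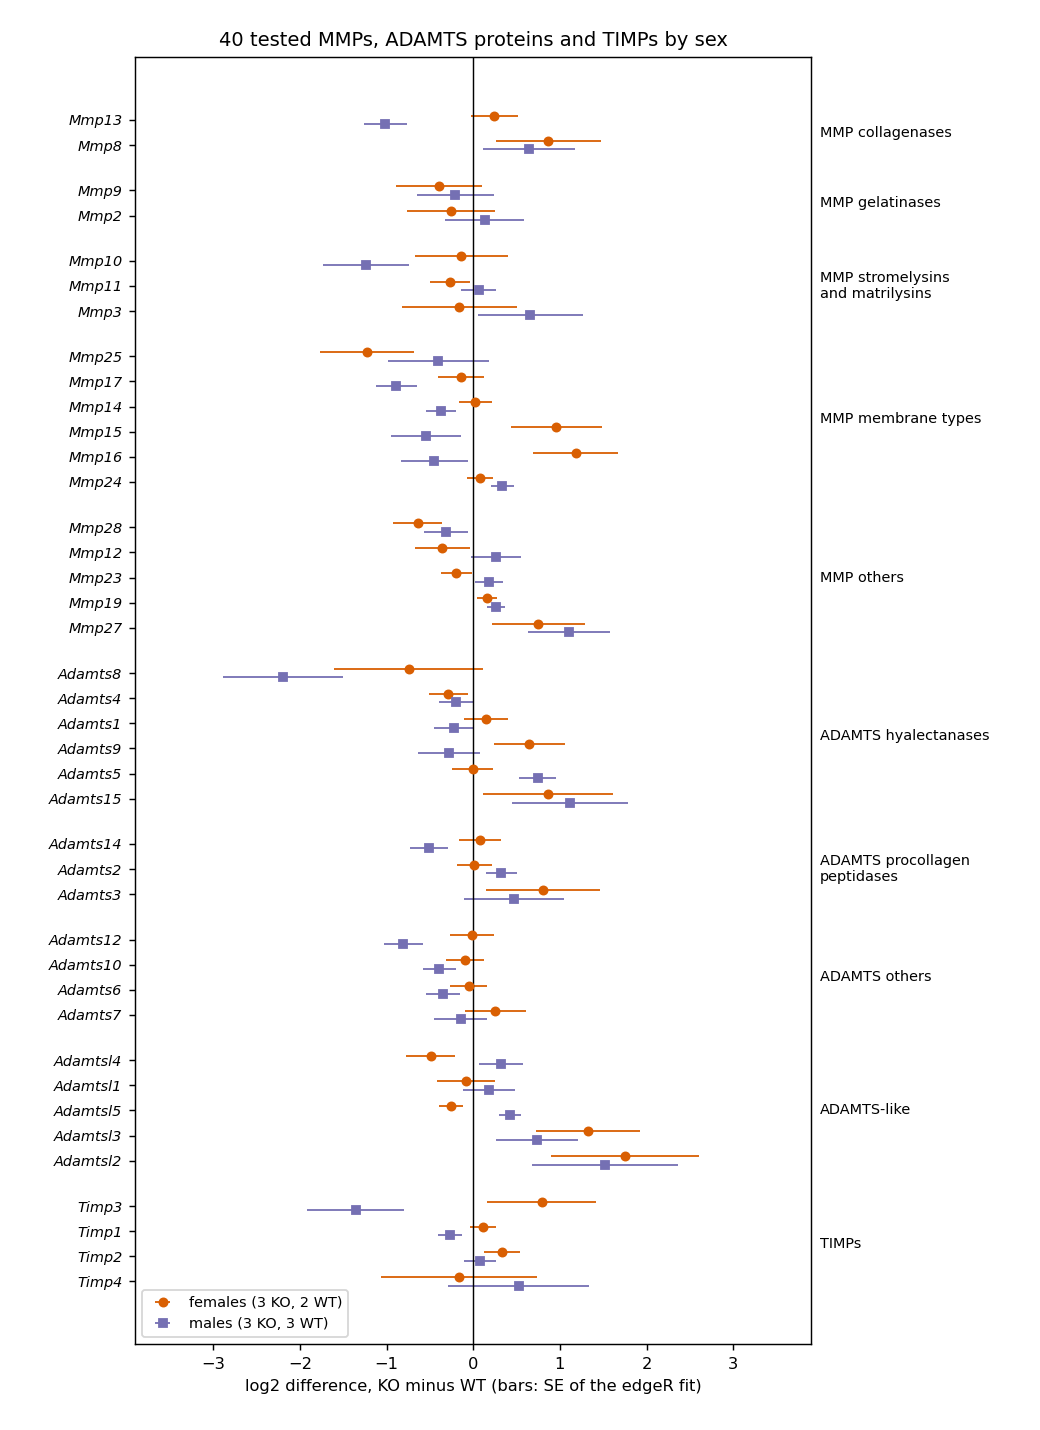
Log2 difference (KO minus WT) with its SE from the edgeR fit for the 40 tested members, in females (circles, 3 KO and 2 WT) and males (squares, 3 KO and 3 WT), grouped by class. Mmp13 and Timp3 lie below 0 in males (-1.01 and -1.36) and above 0 in females (0.24 and 0.79), while Mmp27, Adamtsl2 and Adamtsl3 lie above 0 in both sexes.

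The chromosome 9 row was read as a group because its genes are neighbours. Of its 10 genes, Mmp7 had no count, Mmp1a, Mmp1b and Mmp20 had too few to test, and 6 were tested. In males, KO was lower for Mmp13 (-1.01) and Mmp10 (-1.24, SE 0.50, edgeR adjusted p = 0.175), and higher for Mmp12 (0.26), Mmp3 (0.66), Mmp8 (0.64) and Mmp27 (1.11, SE 0.47, edgeR adjusted p = 0.197). None of the 6 passed the edgeR test on all libraries with the low-count filter. Among the other fits on all libraries, DESeq2 called Mmp13, limma-voom called Mmp13 and Mmp27, and edgeR with no low-count filter called Mmp13. Fits with a library left out are not counted in this list. The male Mmp27 value was 1.11 without WT female 1 and 1.08 without WT female 2, fits that leave the WT female group 1 library. Of the 4 with TGANTCA in the RefSeq window, Mmp13 and Mmp10 had negative and Mmp3 and Mmp12 positive values in males. None of the 7 AP-1 subunits passed the edgeR test over both sexes, and the smallest p among them belonged to Fosl1 (log2 difference -0.47, SE 0.13, adjusted p = 0.186) and Jun (0.34, SE 0.11, adjusted p = 0.196). In males none of the 7 passed either, where 2% of all entries were called. At an unadjusted edgeR p under 0.05 there were 4 of the 7, against 22.2% of all entries. Jun (0.47, SE 0.14), Junb (0.29, SE 0.10) and Jund (0.21, SE 0.08) had positive values (against 12.3% of all entries). Fosl1 (-0.49, SE 0.19) had a negative one (against 9.84%). In females Junb and Jund had values of -0.30 (SE 0.11) and -0.20 (SE 0.08), which did not pass.

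**Figure D4:**
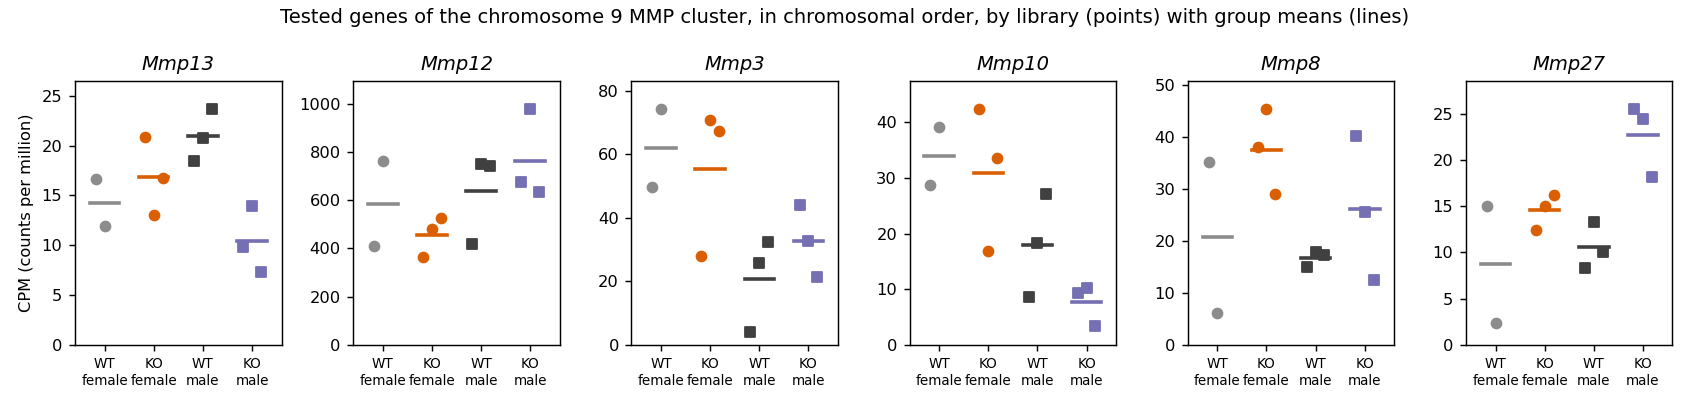
CPM by library (points; squares are males and circles females) and group means (lines) for the 6 tested genes of the chromosome 9 MMP row, in chromosomal order, on linear axes from 0. In males the KO points lie below the WT points for Mmp13 and above them for Mmp27, while the other genes overlap.

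The contrast of males with females over both genotypes was the only one of the 5 in which edgeR called a member on all libraries with the low-count filter. It called 1 of 40, Adamtsl1, where 894 of 22960 entries were called (3.89%, and 2.2% lower in males). DESeq2 called 5 members where it called 12.3% of all entries, and limma-voom 15 where it called 25.7%. Adamtsl1 (punctin-1, a secreted protein of the matrix) was lower in males. It read 36.1, 34.5 and 55.7 CPM in KO females and 33.1 and 56.1 CPM in WT females, but 18.8, 13.5 and 22.3 CPM in KO males and 10.3, 17.6 and 20.4 CPM in WT males.

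All 6 male libraries lay below all 5 female libraries. The means for Adamtsl1 were 17.1 ± 4.47 CPM (SD, n = 6) in males and 43.1 ± 11.7 CPM (SD, n = 5) in females, a log2 difference of -1.33 (SE 0.22, edgeR adjusted p = 0.0148). The call was lost without KO male 2 (-1.25, edgeR adjusted p = 0.0521) and kept in the other 10 fits that left out 1 library. In the genotype contrast over both sexes Adamtsl1 had a log2 difference of 0.06 (SE 0.22, edgeR adjusted p = 0.913).

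Male and female libraries did not overlap for 2 of the 40 members (5%, against 4.99% of all entries), Mmp16 with higher values in males (2.64% of all entries) and Adamtsl1 with lower ones (2.35%). Mmp16 was higher in all males, at 3.57 to 5.41 CPM in KO and 4.57 to 8.93 CPM in WT, than in the females, at 2.13 to 3.26 and 0.531 to 2.03 CPM. Its log2 difference was 1.31 (SE 0.39, edgeR adjusted p = 0.0705) and did not pass. At an unadjusted p under 0.05 in edgeR there were 11 of 40 members, against 26.7% of all entries, 4 higher (against 12.5%) and 7 lower in males (against 14.2%). Beside Mmp16, those nearest to the threshold after Adamtsl1 were Adamtsl3 (1.47, SE 0.37, edgeR adjusted p = 0.0513), Mmp10 (-1.53, SE 0.40, edgeR adjusted p = 0.0525) and Mmp19 (-0.25, SE 0.08, edgeR adjusted p = 0.0707). Among AP-1 subunits, Fos (1.18, SE 0.21, edgeR adjusted p = 0.0176) and Jun (0.63, SE 0.11, edgeR adjusted p = 0.0194) were called higher in males. Over all entries 390 of 22960 were called higher in males. Of the 7 subunits 5 had positive values. Fosl1 (-0.51, SE 0.13, edgeR adjusted p = 0.0531) and Fosl2 (-0.23, SE 0.10, edgeR adjusted p = 0.164) had negative ones that did not pass.

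**Figure D5:**
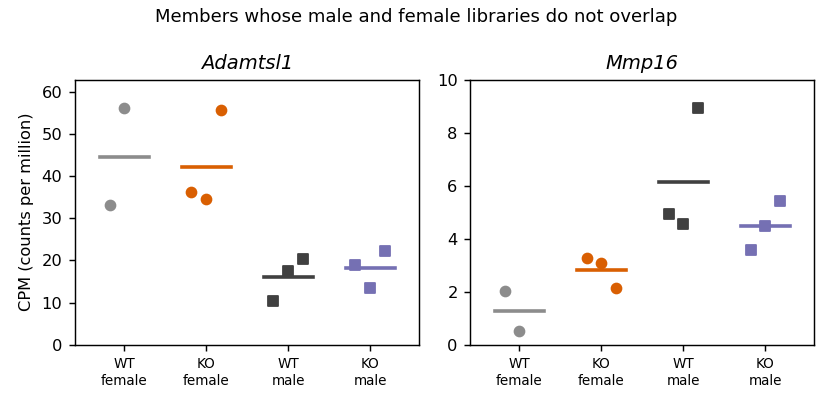
CPM by library (points; squares are males and circles females) with group means (lines) for the 2 members whose male and female libraries do not overlap, on linear axes from 0. Adamtsl1 runs from 10.3 to 22.3 CPM in males and from 33.1 to 56.1 CPM in females, and Mmp16 is arranged the other way round.

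Other genes of pericellular proteolysis and the matrix targets of these enzymes were read beside the families. Of 20 genes for cofactors, activators and inhibitors outside the families, 18 were tested and none passed over both sexes, 9 being higher and 9 lower in KO. In that list Tfpi2, a secreted serine protease inhibitor, had a log2 difference of -0.38 (SE 0.18, edgeR adjusted p = 0.315) and A2m, a broad protease trap, one of 0.76 (SE 0.41, edgeR adjusted p = 0.363). Of 20 substrate genes, 19 were tested and none passed over both sexes, 6 being higher in KO with a list median of -0.14 against -0.02 over all entries. Acan, the aggrecan cut by Adamts5, had a log2 difference of -1.21 (SE 0.47, edgeR adjusted p = 0.237) at 3.35 CPM in KO, and Vwf, the blood-clotting protein cut by Adamts13, one of 0.75 (SE 0.24, edgeR adjusted p = 0.192). In males 6 of the 19 substrate genes were higher in KO, with a list median of -0.24. At an unadjusted edgeR p under 0.05, 3 were higher and 5 lower, against 12.3% and 9.84% of all entries. The only 1 called in males was Vwf, which is also an endothelial marker and was higher in KO (1.22, SE 0.26, edgeR adjusted p = 0.0475). The 12 fibroblast markers were read in every library, with a summed level of 39360 to 57788 CPM.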

How the data were processed

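Total RNA was sequenced in 11 primary lung fibroblast libraries (27261958 to 48039328 counts each). The authors deposited whole-number counts per gene and repeat subfamily. The submitters' processing notes name Trim Galore, STAR and the GRCm39 build. For the counter, its strand setting and the annotation the sources used here give nothing. The labels' extraction text speaks of tissue, which could not be settled. Symbols, gene order and exon lengths came from GENCODE vM21 (GRCm38), which named 52073 of 56980 gene IDs.

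CPM values were made here from these counts and library sizes scaled by TMM (factors 0.955 to 1.04). Differences were tested with edgeR 4.0.16 in R 4.3.3 (quasi-likelihood, filterByExpr with a minimum count of 10, Benjamini-Hochberg adjustment over all entries). The contrasts over both sexes and of males with females used sex plus genotype, and the others a mean per group. Exact permutations shuffled genotype within sex on log2(CPM + 0.1). Alternatives were DESeq2 1.42.0, limma 3.58.1 (voom with sample quality weights), no low-count filter, upper quartile scaling, genes only, a replicate block, and leaving out each library. The fits were also run on simulated counts in which all entries had the same spread between libraries. That setting cannot show how the fits behave with the uneven spread of the real libraries. Replicate libraries differed by a chi-square per degree of freedom of 12.03 to 144, so none was counted as a duplicate.

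Genes with full values were the TIMPs, the called members and the 8 smallest p-values over both sexes. Also named were the highest and the smallest-p member of each class, the 12 smallest p-values over both sexes, the 5 smallest in every other contrast and genes with no count. Genes named outside this rule were chosen after their values were seen. The members and lists were chosen with earlier results of these data known. 1 gene of the lists outside the families is not reported here.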

Additional observations from a re-analysis of the deposited data

Results flagged for a closer look

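A library was called apart where its gap to the nearest other library of its genotype was large against the whole range (Dixon's test, KO n = 6, WT n = 5). This was examined for 28 named members in both genotypes, 56 groups in all, and chance flags about 1 in 20 groups. 4 libraries stood apart. Timp3 was 729.5 CPM in KO female 1, where the next highest KO library had 333 CPM. Adamts2 was 548.6 CPM in KO male 3, where the next had 391 CPM. Mmp25 was 0.935 CPM in WT female 2, where the next WT library had 0.340 CPM. Adamtsl2 was 0.329 CPM in WT female 2, where the next had 0.149 CPM. Of all libraries, WT female 2 correlated least with the rest (median 0.960, against at least 0.978).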

How the results depend on the processing

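The number of members called depended on the tool. Over both sexes limma-voom called 6 members against 0 by edgeR, and leaving out 1 library gave 0 to 2 (2, Mmp24 and Mmp27, without WT female 1, where 1624 of all entries were called against 1). Over all entries the calls in that contrast were 1 in edgeR, 532 in DESeq2 and 3117 in limma-voom. Between males and females the count was 1 in edgeR, 5 in DESeq2, 3 with no low-count filter (where 994 of 38314 entries were called), 3 with upper quartile scaling (1060 of 22960), 15 in limma-voom, and 0 to 6 with a library left out (0 without KO male 2, with 92 of 22787 entries, 6 without WT female 1, with 3336 of 24126, and 4 without WT male 3, with 1575 of 22875). In males it was 5 in DESeq2, 4 with no low-count filter (1079 of 38314 entries), 6 in limma-voom, and 0 to 4 with a library left out (4 without WT female 1, with 2065 of 24126 entries, 4 without WT female 2, with 1765 of 23839, and 1 without WT male 2, with 1012 of 22726). In females it was 0 to 6 and for the genotype by sex difference 0 to 5, both highest without WT female 1, where 3709 and 2435 of 24126 entries were called. That fit has 1 WT female library, assumed to vary like the others, and a filter that let 41 members through.

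With same-numbered libraries as pairs (replicate block) 0 members were called in each of the 4 genotype contrasts. The numbers share no label of a common source, so same-numbered libraries were not treated as pairs. Correlations of deviations from the group means ran from -0.135 to 0.075 for same-numbered libraries and from -0.226 to 0.175 for the others. With 2 WT females the female values mirror each other by construction, so they cannot decide on pairing there. No block could be fitted for males against females, since pairs lie within a sex.

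Among the 28 tested members taken by the naming rule, the only ones followed singly under the alternatives, signs over both sexes reversed for 5, all with differences that had not passed in edgeR. These were Adamtsl1 (limma-voom -0.0468, library left out -0.0718 to 0.22), Mmp12 (limma-voom 0.15, replicate block 0.00288, library left out -0.16 to 0.21), Mmp16 (limma-voom -0.0129, library left out -0.21 to 0.47), Mmp25 (limma-voom 0.11) and Timp4 (limma-voom -0.25, library left out -0.10 to 0.63). The cause was not tested. Others kept their sign but varied in size with a library left out: Mmp8 0.44 to 1.18, Mmp13 -0.71 to -0.29, Mmp3 0.0016 to 0.47, Mmp9 -0.47 to -0.04, Adamts2 0.06 to 0.31 and Adamts3 0.30 to 1.04. Of the values of named members under an alternative, 741 kept their direction and side of the threshold, 46 newly passed, 1 was lost and 17 reversed. DESeq2 gave no adjusted p over both sexes for Adamts8, Adamtsl2, Mmp15, Mmp25 and Timp4. Members read by few counts, such as Timp4 and Adamts8, are limited by depth.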
